A study of Drosophila melanogaster with 6 samples.

Results

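Males whose blood-brain barrier (BBB) was feminized (*SPG-GAL4/UAS-traF*) were compared, by RNA-Seq of whole brains, with males that carried the transgene but no driver (*UAS-traF/+*). The members are the libraries that bear these genotypes in their labels (where the transgene is spelled TraF), which are 2 libraries of each genotype and 4 of the 6 in the series. The other 2 libraries are of males with the driver alone (*SPG-GAL4/+*), and they were used to divide the changes into those that the driver-only males shared with the feminized males and those that they did not. All males carried *w1118* on the X chromosome. *SPG-GAL4*, also called *moody-Gal4*, drives expression in the subperineurial glia (SPG), and *UAS-traF* encodes the female form of Transformer. Both stocks had been outcrossed repeatedly to a Cantonized *w1118* stock. The flies were young adult males, dissected within a fixed window of the light phase, and each replicate pooled many brains. RNA came from whole brains with the BBB attached, so a change in the SPG and a change in neurons were not separated, and fewer cells of a type and less RNA per cell cannot be told apart.

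The subperineurial glia are large polyploid cells that wrap the fly brain, and septate junctions between them seal it from the hemolymph. Transformer is a splicing regulator that is functional in females. It directs the splicing of *doublesex* (*dsx*) and *fruitless* (*fru*), the transcription factors at the end of the sex determination cascade. The comparison with *UAS-traF/+* males holds the transgene constant and adds the driver, so it contains whatever the driver chromosome brings along as well as the expression of TraF. *SPG-GAL4/+* males have that chromosome without TraF.

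The libraries summed to 37608924 and 36644007 estimated counts in *SPG-GAL4/UAS-traF*, 32839081 and 35471014 in *SPG-GAL4/+* and 34478865 and 35513653 in *UAS-traF/+* males. The replicates of *SPG-GAL4/+* lay further apart than those of the other genotypes. The median absolute log2 difference between replicates, over gene sums, was 0.064 in *SPG-GAL4/UAS-traF*, 0.208 in *SPG-GAL4/+* and 0.076 in *UAS-traF/+* males. All of the 10 neuronal and 9 glial marker genes had enough counts to be tested. The 8 SPG marker genes, among them *moody*, *Mdr65*, *Gli* and *Nrx-IV*, summed to 22023 and 21945 normalized counts in *SPG-GAL4/UAS-traF* males, against 21260.0 and 21427 in *UAS-traF/+* males, with a median log2 difference of 0.011 between the genotypes. The only one of 10 testis markers with enough counts to be tested was *Mst87F*.

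At the level of single transcripts, 13 of 21208 tested (0.0613%) differed between *SPG-GAL4/UAS-traF* and *UAS-traF/+* males, 10 higher (0.0472%) and 3 lower (0.0141%), at a threshold of 0.1 on the adjusted p of the quasi-likelihood test in edgeR. Adjusted p-values here and below are those of edgeR after the method of Benjamini and Hochberg, and fold changes set *SPG-GAL4/UAS-traF* over *UAS-traF/+* males. SE is an approximate standard error of a log2 fold change, its absolute value divided by the square root of the quasi-likelihood F statistic. Before adjustment 1672 transcripts (7.88%) had p below 0.05, 938 higher (4.42%) and 734 lower (3.46%). The 13 transcripts belong to 11 genes, and coordinates given for them are those of the Ensembl annotation of BDGP6.54. For 10 of these genes the counts summed over all transcripts differed by less than 0.5 on the log2 scale, and usage of transcripts within the gene was called for the same number. The exception was *white* (*w*), which has 1 transcript in the table. Apart from *w*, each transcript call thus came with a called change in usage inside its gene. DESeq2 called 656 transcripts, 437 higher and 219 lower. The edgeR count was 0 without either *SPG-GAL4/UAS-traF* library or without *UAS-traF/+* replicate 1, 4 without either *SPG-GAL4/+* library and 34 without *UAS-traF/+* replicate 2, where the single library left is assumed to vary like the others.

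To divide the changes, each *SPG-GAL4/+* library was placed between the *UAS-traF/+* mean and the *SPG-GAL4/UAS-traF* mean of log2(normalized count + 0.5). A change was counted as shared where both driver-only libraries lay past the midpoint, on the side of the feminized males, as not shared where both lay on the side of *UAS-traF/+*, and as split otherwise. Of the 13 transcripts 9 were shared and 4 were not. Over all tested transcripts 27.3% were shared, 22.4% were not shared and 50.2% were split. The spread in the fit came in part from the *SPG-GAL4/+* pair. Calls therefore favored transcripts where that pair agreed, so the called and the tested shares are not like for like. Both comparisons use the same *UAS-traF/+* libraries, so a value that stands off in these places both other genotypes on one side. Among the 1672 transcripts with an unadjusted p below 0.05, higher transcripts were shared in 492 and not shared in 158 of 938 cases, and lower transcripts were shared in 234 and not shared in 309 of 734 cases.

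The 4 called transcripts that driver-only males did not share belong to *trol*, *dpr15* and *Liprin-gamma*. *trol-RAL* (FBtr0342811, chromosome X, 2471008 to 2545427, minus strand) is a transcript of *trol*, which encodes Perlecan, a heparan sulfate proteoglycan of basement membranes. It had 3409 and 3556 normalized counts in *SPG-GAL4/UAS-traF*, 0 and 5.75 in *SPG-GAL4/+* and 0 in both *UAS-traF/+* libraries. This transcript was therefore seen almost solely in feminized brains, where it made up 7.40% of the *trol* counts. It was at least 1142.5-fold higher than in *UAS-traF/+* males, against a floor of 3 counts per library (edgeR adjusted p = 0.0973). The sum over *trol* transcripts had a log2 fold change of 0.36 (SE 0.19, edgeR adjusted p = 0.788), and *trol-RAL* differs from the most abundant transcript, *trol-RAS*, in 779 exonic and 231 coding bases.

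*dpr15* encodes a member of the Dpr family of immunoglobulin-domain proteins, which bind DIP proteins on partner neurons. Its transcripts changed places in the feminized males. *dpr15-RA* (FBtr0082549, chromosome 3R, 12138833 to 12158595, minus strand) had 2411 and 2236 normalized counts in *SPG-GAL4/UAS-traF*, 727 and 654 in *SPG-GAL4/+* and 475 and 632 in *UAS-traF/+* males. *dpr15-RB* (FBtr0339647), over the same coordinates, had 346 and 302 normalized counts in *SPG-GAL4/UAS-traF*, 2296 and 1933 in *SPG-GAL4/+* and 2108 and 1764 in *UAS-traF/+* males. The 2 feminized libraries lay outside the range of all 4 others for both transcripts, which follows in large part from a call that is not shared. *dpr15-RA* rose (log2 fold change 2.07, SE 0.17, edgeR adjusted p = 0.0977) and *dpr15-RB* fell (log2 fold change -2.58, SE 0.16, edgeR adjusted p = 0.0430). *dpr15-RA* made up 87.8% of the gene's counts in feminized males, 24.7% in *SPG-GAL4/+* and 22.3% in *UAS-traF/+* males, while the sum of both had a log2 fold change of 0.10. The annotated transcripts differ by 16 exonic bases, none of them coding, so the exchange rests on reads over a short stretch.

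*Liprin-gamma-RB* (FBtr0071847, chromosome 2R, 22333500 to 22354708, minus strand) comes from a gene of the liprin family, scaffold proteins of the presynaptic active zone. It had 66.1 and 56.5 normalized counts in *SPG-GAL4/UAS-traF*, 584 and 639 in *SPG-GAL4/+* and 657 and 751 in *UAS-traF/+* males. It fell in feminized males (log2 fold change -3.52, SE 0.16, edgeR adjusted p = 0.0305). *Liprin-gamma-RA* was also lowest in feminized males, with 24.9 and 89.7 in *SPG-GAL4/UAS-traF*, 482 and 430.0 in *SPG-GAL4/+* and 342 and 444 in *UAS-traF/+* males (log2 fold change -2.78, edgeR adjusted p = 0.382). The most abundant transcript, *Liprin-gamma-RE*, held between 9484 and 11480 counts in every library. Tested directly against *SPG-GAL4/+* males, the 4 transcripts had adjusted p-values of 0.104 for *Liprin-gamma-RB*, 0.121 for *dpr15-RB*, 0.279 for *trol-RAL* and 0.504 for *dpr15-RA* (edgeR). No transcript passed the threshold in that comparison in edgeR, 0 of 21208, against 1188 (5.60%) with p below 0.05 before adjustment, and DESeq2 was not run for it.

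**Figure D1:**
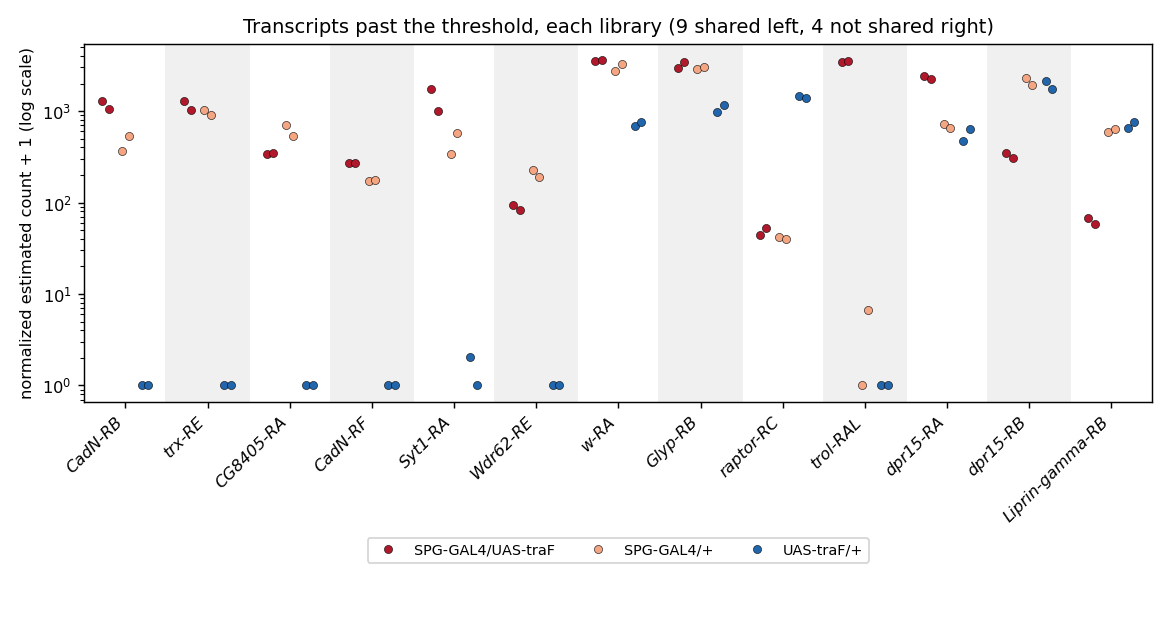
Normalized estimated counts plus 1 (log scale) of the 13 transcripts past the threshold, 1 point per library, for *SPG-GAL4/UAS-traF*, *SPG-GAL4/+* and *UAS-traF/+* males from left to right within each transcript. In the 9 transcripts on the left the *SPG-GAL4/+* points lie with the feminized ones, and in the 4 on the right, *trol-RAL*, *dpr15-RA*, *dpr15-RB* and *Liprin-gamma-RB*, they lie with *UAS-traF/+*.

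The 9 shared transcripts included 6 that had at most 1 count in each *UAS-traF/+* library and were present in all 4 libraries with the driver. *raptor-RC* (FBtr0345895, chromosome X, 6082634 to 6090201, minus strand) had the smallest p. *raptor* encodes a subunit of the TORC1 complex, which ties growth to nutrients. The transcript had 43.1 and 51.7 normalized counts in *SPG-GAL4/UAS-traF*, 41.4 and 39.3 in *SPG-GAL4/+* and 1443 and 1379 in *UAS-traF/+* males. Its sister *raptor-RB* had 3062 and 3053 in *SPG-GAL4/UAS-traF*, 3435 and 2991 in *SPG-GAL4/+* and 1501 and 1563 in *UAS-traF/+* males. *raptor-RC* thus made up 1.53% of the gene's counts in feminized males and 1.24% in driver-only males, and 47.9% in *UAS-traF/+* males. The transcript fell in feminized males (log2 fold change -4.89, SE 0.16, edgeR adjusted p = 0.0117). The transcripts differ by 25 exonic and 0 coding bases.

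*trx-RE* (FBtr0100277, chromosome 3R, 14264658 to 14286903) is a transcript of *trithorax*, a histone methyltransferase that keeps genes active. It had 1279.8 and 1031 normalized counts in *SPG-GAL4/UAS-traF*, 1019.5 and 900.2 in *SPG-GAL4/+* and 0 in both *UAS-traF/+* libraries, at least 379-fold higher in feminized males than the floor of 3 counts (edgeR adjusted p = 0.0305). *trx-RC* had the reverse pattern, with 0 and 3.90 in *SPG-GAL4/UAS-traF*, 1.09 and 235 in *SPG-GAL4/+* and 1159 and 981 in *UAS-traF/+* males. The sum over *trx* transcripts had a log2 fold change of 0.18. Replicate 2 of *SPG-GAL4/+* was the one library with more than a few counts of both forms.

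*CadN* encodes N-cadherin, an adhesion protein of axons. *CadN-RB* (FBtr0081020), on chromosome 2L between 17649866 and 17752346, had 1299 and 1043 normalized counts in *SPG-GAL4/UAS-traF*, 362 and 527 in *SPG-GAL4/+* and 0 in both *UAS-traF/+* libraries. *CadN-RF* (FBtr0081017) had 272 and 267 in *SPG-GAL4/UAS-traF*, 172 and 176 in *SPG-GAL4/+* and 0 in both *UAS-traF/+* libraries. These transcripts were at least 384-fold and 88.5-fold higher in feminized males than the floor, with adjusted p = 0.0516 and 0.0428 (edgeR), and they made up 7.07% and 1.63% of the *CadN* counts there. In both, the driver-only libraries were present but below the feminized ones. *Syt1-RA* (FBtr0077726, chromosome 2L, 2780741 to 2799979), a transcript of the calcium sensor of vesicle release, had that order too, with 1726 and 999.1 in *SPG-GAL4/UAS-traF*, 337 and 572 in *SPG-GAL4/+* and 1.04 and 0 in *UAS-traF/+* males (edgeR adjusted p = 0.0671).

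In another pair the driver-only libraries had the higher counts. *CG8405-RA* (FBtr0087210), on chromosome 2R between 16047648 and 16059466, had 341 and 345 normalized counts in *SPG-GAL4/UAS-traF*, 695 and 533 in *SPG-GAL4/+* and 0 in both *UAS-traF/+* libraries, and was at least 113-fold higher in feminized males than the floor (edgeR adjusted p = 0.0428). *Wdr62-RE* (FBtr0113012, chromosome 2L, 1884622 to 1943461), from a gene for a WD40 protein of the mitotic spindle, had 93.9 and 82.8 in *SPG-GAL4/UAS-traF*, 226 and 189.6 in *SPG-GAL4/+* and 0 in both *UAS-traF/+* libraries (at least 29.0-fold, edgeR adjusted p = 0.0977).

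*w-RA* (FBtr0070490, chromosome X, 2790599 to 2796466) and *Glyp-RB* (FBtr0100485, chromosome 2L, 2130813 to 2137043) were present in all libraries and higher in those with the driver. *w* encodes an ABC transporter subunit for pigment precursors and is a common marker gene on transgene constructs. *w-RA* had 3514 and 3596 normalized counts in *SPG-GAL4/UAS-traF*, 2758 and 3305 in *SPG-GAL4/+* and 683 and 758 in *UAS-traF/+* males (log2 fold change 2.30, SE 0.12, edgeR adjusted p = 0.0395). *Glyp* encodes glycogen phosphorylase, which releases glucose from glycogen. *Glyp-RB* had 2992 and 3482 in *SPG-GAL4/UAS-traF*, 2898 and 3003 in *SPG-GAL4/+* and 968 and 1154 in *UAS-traF/+* males (log2 fold change 1.61, SE 0.13, edgeR adjusted p = 0.0977). Its share of the *Glyp* counts was 24.7% in feminized males, 23.5% in driver-only males and 8.51% in *UAS-traF/+* males, while the gene sum had a log2 fold change of 0.08.

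**Figure D2:**
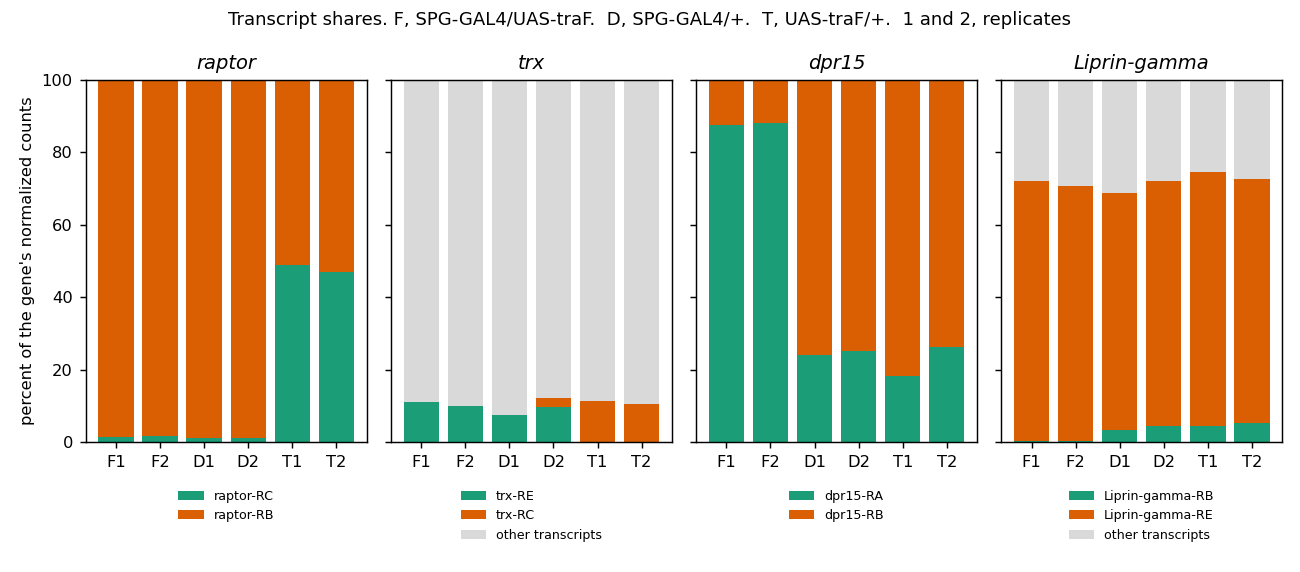
Share of each gene's normalized counts (percent, 0 to 100) taken by single transcripts of *raptor*, *trx*, *dpr15* and *Liprin-gamma* in each library (F, *SPG-GAL4/UAS-traF*. D, *SPG-GAL4/+*. T, *UAS-traF/+*). *raptor-RC* and *trx-RE* separate the libraries with the driver from those without it, and *dpr15-RA*, at 87.8% of the counts in feminized males, separates these from both controls.

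The first 20 higher and 20 lower transcripts in order of p, the 13 called included, whose *SPG-GAL4/UAS-traF* and *UAS-traF/+* libraries do not overlap (as is true of 48.5% of all tested transcripts), were divided by the same rule. Transcripts of *flw*, *Syt14* and *Sap47* with identical counts are counted 2 times in them. Of the 20 higher transcripts 18 were shared and 2 were not. Of the 20 lower transcripts 5 were shared, 12 were not and 3 were split. Past the 13 called, none of these had an adjusted p below 0.1 in edgeR, and values are given without a call. *JhI-21-RA*, a transcript of an amino acid transporter gene, had 0 counts in both *SPG-GAL4/UAS-traF* libraries, 236 and 331 normalized counts in *SPG-GAL4/+* and 195 and 93.3 in *UAS-traF/+* males (edgeR adjusted p = 0.211). *fru-RM* had 1.92 and 0 in *SPG-GAL4/UAS-traF*, 69.8 and 44.1 in *SPG-GAL4/+* and 270 and 169 in *UAS-traF/+* males (edgeR adjusted p = 0.227). These 2 transcripts were at or near 0 in feminized brains and clearly counted in both controls, as were *Pld-RD*, *CAP-RQ*, *CG9662-RB*, *Sol1-RD* and *Sgp-RB*.

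In *wde-RB*, from *windei*, a partner of a histone H3K9 methyltransferase, the feminized libraries were also lowest, with 244 and 346 normalized counts against 1236 and 1231 in *SPG-GAL4/+* and 812 and 962 in *UAS-traF/+* males (log2 fold change -1.59 to *UAS-traF/+*, SE 0.20). *par-1-RL*, from a gene for a polarity kinase, had 145 and 178 in *SPG-GAL4/UAS-traF*, 348 and 412 in *SPG-GAL4/+* and 543 and 452 in *UAS-traF/+* males (log2 fold change -1.62). *cwo-RC*, from the clock gene *clockwork orange*, was split, with 56.6 and 59.5 in *SPG-GAL4/UAS-traF*, 129.8 and 122 in *SPG-GAL4/+* and 287 and 244 in *UAS-traF/+* males (log2 fold change -2.19). Among the higher ones that were shared, *Fer2LCH-RD*, a transcript of the ferritin light chain, had 2289 and 3492 in *SPG-GAL4/UAS-traF*, 1766 and 3359 in *SPG-GAL4/+* and 0 in both *UAS-traF/+* libraries. *moody-RF*, which lies outside these 20 and was picked after its values were seen, had 1463 and 1449 in *SPG-GAL4/UAS-traF*, 1465 and 1444 in *SPG-GAL4/+* and 726 and 849 in *UAS-traF/+* males (log2 fold change 0.89, edgeR adjusted p = 0.215), while the sum over *moody* transcripts had a log2 fold change of 0.13.

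Usage of transcripts within genes was tested over the genes. In diffSpliceDGE of edgeR, 141 of 5109 genes with at least 2 tested transcripts (2.76%) passed an adjusted p of 0.1. Of these 141 genes 3 had a gene sum with an unadjusted p below 0.05, and 0 had a called gene sum. *trol* (adjusted p = 3.0e-13), *Fer2LCH* (8.7e-10), *Syt1* (6.1e-07), *raptor* (9.3e-06) and *CadN* (2.7e-05) led the list. *lola* (0.000358), a transcription factor gene with many isoforms, *fru* (0.000748), *Nrx-1* (0.000887), the presynaptic Neurexin, and *Rim* (0.00107), an active zone protein, were also among the first 25 by p and were picked after their values were seen. For the other comparisons of the same fit, 114 genes passed between *SPG-GAL4/+* and *UAS-traF/+* males and 28 between *SPG-GAL4/UAS-traF* and *SPG-GAL4/+* males. The F test of diffSpliceDGE in place of the Simes test passed 265 genes (5.19%). The count was 86 and 57 without replicate 1 and replicate 2 of *SPG-GAL4/UAS-traF*, 242 and 253 without those of *SPG-GAL4/+*, and 66 without replicate 1 of *UAS-traF/+*.

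Summed over transcripts, 10 of 9777 genes (0.102%) passed the threshold, 5 higher (0.0511%) and 5 lower (0.0511%), against 698 (7.14%) with p below 0.05 before adjustment, 194 higher (1.98%) and 504 lower (5.15%). Of the 10 genes 9 were shared with *SPG-GAL4/+* males and 1 was split, against 25.2% shared, 18.8% not shared and 56.0% split over all gene sums. The spread in this fit came in part from the *SPG-GAL4/+* pair. Calls therefore favored genes where that pair agreed, and a split place was less likely among them. In a fit without that pair, described below, 28.3% of 813 called genes were shared. *w* had 3516 and 3605 normalized counts in *SPG-GAL4/UAS-traF*, 2869 and 3244 in *SPG-GAL4/+* and 680.0 and 747 in *UAS-traF/+* males (log2 fold change 2.32, SE 0.09, edgeR adjusted p = 0.000458). *GIIIspla2* (chromosome X, 8157628 to 8159348), a gene for a secretory phospholipase A2, had 1414 and 1360.3 in *SPG-GAL4/UAS-traF*, 1234 and 1314 in *SPG-GAL4/+* and 536 and 549 in *UAS-traF/+* males (log2 fold change 1.35, SE 0.08, edgeR adjusted p = 0.00301). Both genes passed under each alternative run for them, leaving out any single library included.

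The other higher genes were *nod*, *CG14111* and *Sdic3*. *nod*, a kinesin-like gene known from chromosome segregation, had 1183 and 1056 normalized counts in *SPG-GAL4/UAS-traF*, 1101 and 1099.7 in *SPG-GAL4/+* and 710.0 and 666 in *UAS-traF/+* males (log2 fold change 0.70, edgeR adjusted p = 0.0964). *CG14111* had 287 and 111 in *SPG-GAL4/UAS-traF*, 203 and 292 in *SPG-GAL4/+* and 1.04 and 4.89 in *UAS-traF/+* males (edgeR adjusted p = 0.0879). *Sdic3*, one copy of a tandem cluster of sperm dynein genes on the X chromosome, had 148 and 347 in *SPG-GAL4/UAS-traF*, 157 and 176 in *SPG-GAL4/+* and 0 in both *UAS-traF/+* libraries. The copies of that cluster are nearly identical, so the assignment of its reads to one copy is uncertain.

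Among the lower genes the clock gene *vrille* (*vri*, chromosome 2L, 5288944 to 5311223) had the smallest p. *vri* had 512 and 501 normalized counts in *SPG-GAL4/UAS-traF*, 533 and 465 in *SPG-GAL4/+* and 1273 and 1315 in *UAS-traF/+* males (log2 fold change -1.35, SE 0.09, edgeR adjusted p = 0.00567). *CG16965* had 172 and 146 in *SPG-GAL4/UAS-traF*, 106 and 131 in *SPG-GAL4/+* and 373 and 389 in *UAS-traF/+* males (log2 fold change -1.26). *pre-mod(mdg4)-B*, one of the small genes that supply 3' exons to the trans-spliced *mod(mdg4)* messages, had 197 and 170.0 in *SPG-GAL4/UAS-traF*, 188 and 224 in *SPG-GAL4/+* and 401 and 409.7 in *UAS-traF/+* males (log2 fold change -1.14). *udd*, a gene for a factor of RNA polymerase I, was the split one, with 328 and 340.1 in *SPG-GAL4/UAS-traF*, 399 and 509 in *SPG-GAL4/+* and 669.7 and 726 in *UAS-traF/+* males (log2 fold change -1.06). The adjusted p was 0.0879 for each of these 3 in edgeR.

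**Figure D3:**
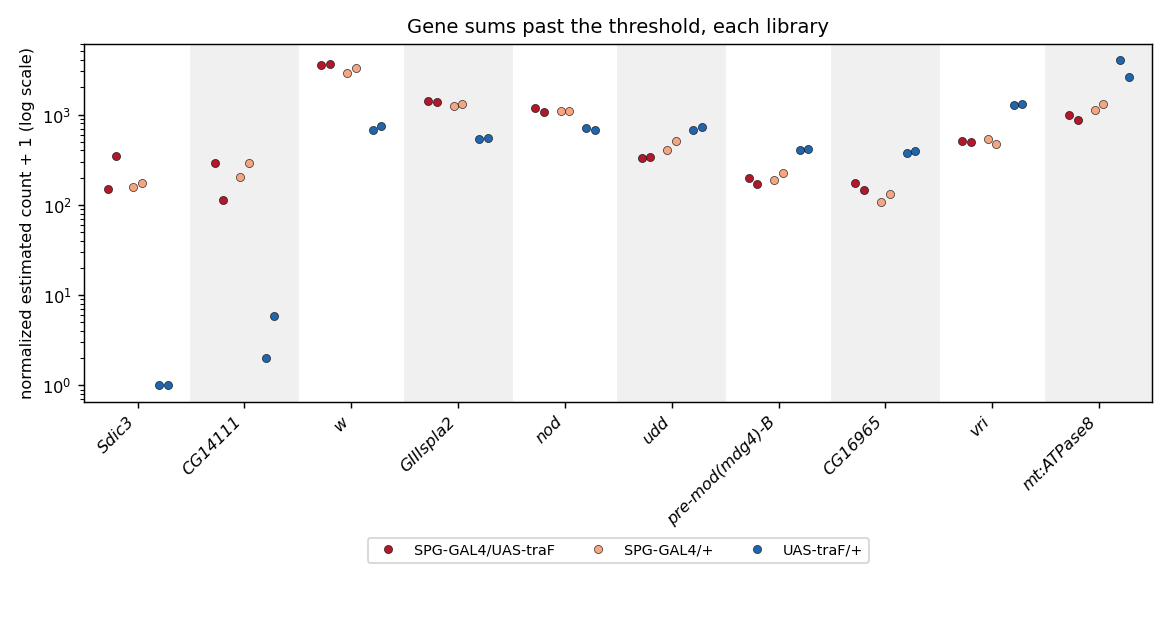
Normalized estimated counts plus 1 (log scale), per gene, for the 10 gene sums past the threshold, 1 point per library, for *SPG-GAL4/UAS-traF*, *SPG-GAL4/+* and *UAS-traF/+* males from left to right. In 9 genes both *SPG-GAL4/+* points lie nearer to the feminized libraries, and *udd* is the split one.

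The number of gene sums called depended on which libraries set the spread. Without the *SPG-GAL4/+* libraries, in a fit of *SPG-GAL4/UAS-traF* and *UAS-traF/+* alone, 813 of 9635 genes (8.44%) passed, 346 higher (3.59%) and 467 lower (4.85%), with a median absolute log2 fold change of 0.283 and 64 genes above 1. The count was 405 without *SPG-GAL4/+* replicate 1, 413 without replicate 2, 68 without *UAS-traF/+* replicate 2, 5 without *UAS-traF/+* replicate 1, and 3 and 4 without replicate 1 and 2 of *SPG-GAL4/UAS-traF*. DESeq2 with all 6 libraries called 57. The *SPG-GAL4/+* libraries had no part in the 2-genotype fit, and their place among the 813 genes was 230 shared (28.3%), 136 not shared (16.7%) and 447 split (55%), against 25.3%, 18.4% and 56.3% of all genes tested there. Of the 373 of these genes that were also called with the length trend removed, 121 were shared (32.4%), 105 were not shared (28.2%) and 147 were split (39.4%). Of the 64 genes above 1, 15 were higher and 49 lower, and 33 were shared, 14 were not and 17 were split. The place was not counted over all tested genes of that size, and a larger distance between the genotypes makes a split place less likely. Among the 813, the shared genes were higher in 82 and lower in 148 cases, against 1091 and 1347 of all shared genes tested. Those not shared were higher in 27 and lower in 109, against 832 and 942 of all genes not shared.

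Genes called in the 2-genotype fit and not shared are those where feminized brains differed from *UAS-traF/+* brains and both driver-only libraries stayed on the *UAS-traF/+* side. The following were picked from these calls after their values were seen, and adjusted p-values are from the edgeR fit of 2 genotypes. *CG10936* had 3859 and 4532 normalized counts in *SPG-GAL4/UAS-traF*, 2443 and 2058 in *SPG-GAL4/+* and 2239 and 1890.3 in *UAS-traF/+* males (log2 fold change 1.02, SE 0.09, adjusted p = 0.00621), and stood at an adjusted p of 0.103 in the 3-genotype fit. *dpr21*, another Dpr gene, had 3355 and 3331 in *SPG-GAL4/UAS-traF*, 2505 and 2868 in *SPG-GAL4/+* and 2432 and 2710 in *UAS-traF/+* males (log2 fold change 0.38, adjusted p = 0.0194). *Dh44*, a diuretic hormone neuropeptide, had 18253 and 17543 in *SPG-GAL4/UAS-traF*, 15762 and 13919 in *SPG-GAL4/+* and 15032 and 14223 in *UAS-traF/+* males (log2 fold change 0.29, adjusted p = 0.0555). Feminized brains were highest for all 3 genes, an order that follows from choosing higher calls that were not shared.

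*CheB53a*, from a family of genes expressed in gustatory sensilla, was nearly absent, with 0.959 and 0.977 normalized counts in *SPG-GAL4/UAS-traF*, 15.9 and 17.9 in *SPG-GAL4/+* and 21.7 and 14.7 in *UAS-traF/+* males (adjusted p = 0.0286). *CG9902* had 642 and 541 in *SPG-GAL4/UAS-traF*, 1112 and 817 in *SPG-GAL4/+* and 996 and 1127 in *UAS-traF/+* males (log2 fold change -0.84, adjusted p = 0.0114). *CG31538* had 72.9 and 58.6 in *SPG-GAL4/UAS-traF*, 226 and 163 in *SPG-GAL4/+* and 130.4 and 155 in *UAS-traF/+* males (log2 fold change -1.11, adjusted p = 0.0252). These 3 were lowest in feminized brains, which follows from choosing lower calls that were not shared.

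Among the splicing regulators, *B52*, an SR protein, and *hfp*, a poly-U binding splicing factor, had an unadjusted p below 0.05 in the 3-genotype fit without being called over all genes. Both were lower in *SPG-GAL4/UAS-traF* males, and neither was shared with *SPG-GAL4/+* males. *hfp* had 8145 and 8263 normalized counts in *SPG-GAL4/UAS-traF*, 12738 and 10264 in *SPG-GAL4/+* and 10326 and 11113 in *UAS-traF/+* males (log2 fold change -0.39). *B52* had 7336 and 7597 in *SPG-GAL4/UAS-traF*, 11571 and 8832 in *SPG-GAL4/+* and 9302 and 10250.2 in *UAS-traF/+* males (log2 fold change -0.39). The feminized libraries were the lowest 2 of 6 for both genes, an order nearly fixed where a lower gene is not shared. In the 2-genotype fit of edgeR both passed, with adjusted p = 0.0208 for *hfp* and 0.0258 for *B52*. That fit called 8.44% of all genes. The median log2 fold change of the 28 tested regulators was -0.004.

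The sex determination and dosage compensation genes had 2 of 17 with an unadjusted p below 0.05, both lower, not called over all genes and not shared. Over all gene sums 7.14% had such a p, 5.15% of them all being lower ones. *dsx* had 512 and 563 normalized counts in *SPG-GAL4/UAS-traF*, 679.6 and 665 in *SPG-GAL4/+* and 673 and 716 in *UAS-traF/+* males (log2 fold change -0.37, SE 0.09, edgeR adjusted p = 0.455). Its tested transcripts were both lower, and neither rose. *dsx-RD*, with 1647 coding bases, had a log2 fold change of -0.36 (edgeR adjusted p = 0.577). *dsx-RF*, with 1281 coding bases, had one of -0.47 (edgeR adjusted p = 0.638). *Ythdc1*, a reader of the m6A mark in the splicing of *Sxl*, had 4986 and 4991 in *SPG-GAL4/UAS-traF*, 7908 and 6364 in *SPG-GAL4/+* and 6270.4 and 7019 in *UAS-traF/+* males (log2 fold change -0.41, edgeR adjusted p = 0.595). Both genes passed in the 2-genotype fit of edgeR, with adjusted p = 0.0652 for *dsx* and 0.0237 for *Ythdc1*. That fit called 8.44% of all genes. The feminized libraries were the lowest 2 of 6 for both genes, an order nearly fixed where a lower gene is not shared. The sum over *fru* transcripts had a log2 fold change of 0.06.

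In the circadian clock list *vri* was called and *tim* had an adjusted p of 0.113 (edgeR), 2 of 10 tested genes with an unadjusted p below 0.05, both lower and both shared. Over all gene sums 5.15% were lower at that p. *tim*, the partner of *period* in the clock's repressor complex, had 2049.6 and 2028 normalized counts in *SPG-GAL4/UAS-traF*, 2157 and 1989.8 in *SPG-GAL4/+* and 3433 and 2994 in *UAS-traF/+* males (log2 fold change -0.66, SE 0.09), and passed in the 2-genotype fit of edgeR (adjusted p = 0.00711). Among the other 8 the smallest edgeR adjusted p was 0.802, for *cyc*, and log2 fold changes lay between -0.14 for *cry* and 0.18 for *Pdp1*. Within *per*, *per-RB*, picked after its values were seen, had 674 and 770.0 in *SPG-GAL4/UAS-traF*, 652 and 663 in *SPG-GAL4/+* and 350.3 and 373 in *UAS-traF/+* males (log2 fold change 1.00, edgeR adjusted p = 0.219).

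**Figure D4:**
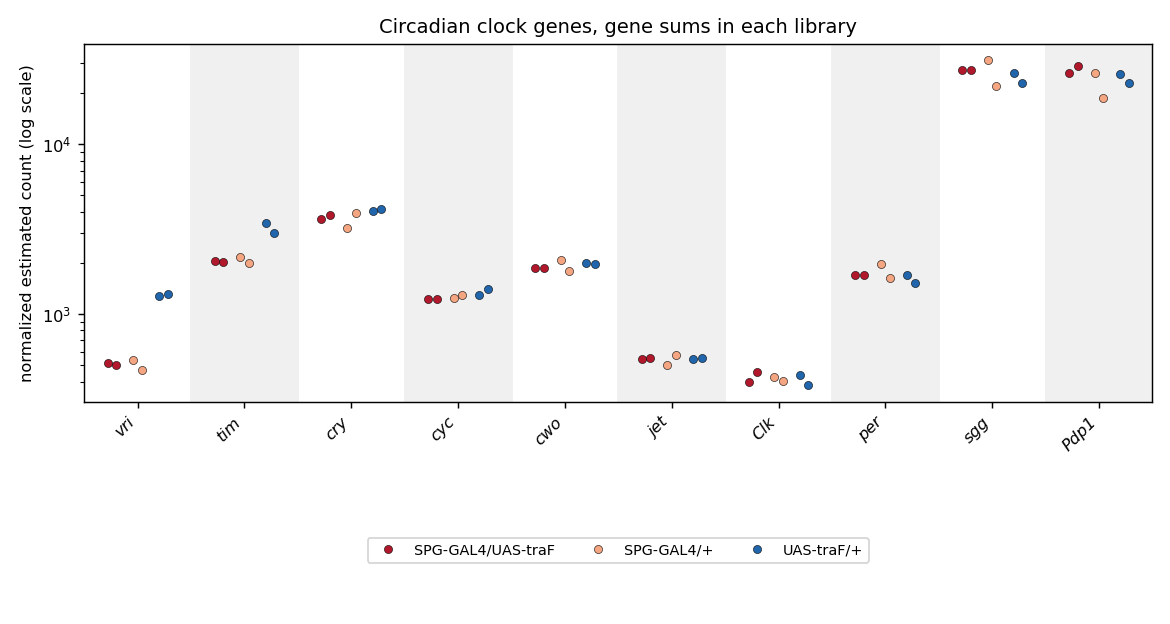
Normalized estimated counts (log scale) of the 10 tested circadian clock genes, summed over transcripts, 1 point per library, for *SPG-GAL4/UAS-traF*, *SPG-GAL4/+* and *UAS-traF/+* males from left to right, in order of the log2 fold change. *vri* and *tim* are lower in all 4 libraries with the driver than in both *UAS-traF/+* libraries, as is *cry*, and the other 7 genes overlap between the driver genotypes and *UAS-traF/+*.

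Of 24 ecdysone and juvenile hormone genes 3 had an unadjusted p below 0.05, all lower and none called, against 5.15% lower over all gene sums. *Methoprene-tolerant* (*Met*), a juvenile hormone receptor, had 4926 and 5230.1 normalized counts in *SPG-GAL4/UAS-traF*, 8932 and 5228 in *SPG-GAL4/+* and 12584 and 13729.6 in *UAS-traF/+* males (log2 fold change -1.37, SE 0.23, edgeR adjusted p = 0.214). The *SPG-GAL4/+* replicates were far apart for *Met*, and in the 2-genotype fit of edgeR it passed with an adjusted p of 0.000135. *hfw* (*halfway*), an ecdysone-related gene, was lower too, with 879 and 930.3 in *SPG-GAL4/UAS-traF*, 986 and 938 in *SPG-GAL4/+* and 1174 and 1185 in *UAS-traF/+* males (log2 fold change -0.38, edgeR adjusted p = 0.273).

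Of 29 neuropeptide genes 3 were higher and 1 lower at an unadjusted p below 0.05, none called. Over all gene sums 1.98% were higher and 5.15% lower at this p. *CNMa* had 52.8 and 53.7 normalized counts in *SPG-GAL4/UAS-traF*, 65.8 and 64.9 in *SPG-GAL4/+* and 154 and 111 in *UAS-traF/+* males (log2 fold change -1.32, edgeR adjusted p = 0.191). *Tk*, the tachykinin precursor, had 6295 and 6607 in *SPG-GAL4/UAS-traF*, 6326 and 5337 in *SPG-GAL4/+* and 5055 and 4864 in *UAS-traF/+* males (log2 fold change 0.38, edgeR adjusted p = 0.565). *CCHa1* and *Dh44* were the other higher ones. The list's median log2 fold change was -0.05.

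In the 3-genotype fit no gene of the barrier lists was called, where 0.102% of all gene sums were called and 7.14% had an unadjusted p below 0.05. None of 25 septate junction, 10 Moody signaling, 17 transporter, 13 basement membrane and 8 SPG marker genes passed there in edgeR, and 1 of them, the claudin *kune*, had an unadjusted p below 0.05, with 654 and 669 normalized counts in *SPG-GAL4/UAS-traF*, 723 and 665 in *SPG-GAL4/+* and 789 and 749 in *UAS-traF/+* males (log2 fold change -0.22). *moody* had 3743 and 3939 in *SPG-GAL4/UAS-traF*, 3600 and 3632 in *SPG-GAL4/+* and 3481 and 3536 in *UAS-traF/+* males. The median log2 fold change was 0.002 for septate junction, 0.004 for transporter and 0.099 for basement membrane genes. The 2-genotype fit of edgeR called 1 Moody signaling gene, *Pka-C1* (log2 fold change 0.28, adjusted p = 0.0976), and 2 basement membrane genes, *LanA* (log2 fold change 0.42, adjusted p = 0.0976) and *SPARC* (log2 fold change -0.26, adjusted p = 0.0706), and 0 in the other lists. With the length trend also removed it called *bou* of the septate junction list (adjusted p = 0.0624) and *SPARC* (adjusted p = 0.0858). The synaptic lists and the neuron markers had positive medians. Of 29 active zone and vesicle release genes 26 and of 31 Dpr and DIP genes 25 had a positive log2 fold change, with medians of 0.123 and 0.101, and 0 in each had an unadjusted p below 0.05 in the 3-genotype fit. The 10 neuron markers were all positive, with a median of 0.11. The 2-genotype fit of edgeR called 2 of the 29 active zone genes, *Syx1A* and *Synj*, and 2 of the 31 Dpr and DIP genes, *dpr9* and *dpr13*, all higher. Over all genes that fit called 8.44%. With the length trend also removed it called 3 active zone genes and 0 Dpr and DIP genes. Differences also moved with gene length. The median log2 fold change was 0.092 among the longest genes (median length 4767 bases) and -0.142 among the shortest (median length 812 bases), and *SPG-GAL4/+* against *UAS-traF/+* had 0.147 and -0.133 in the same genes. With the trend with length removed, the medians were 0.031 for active zone genes, 0.047 for Dpr and DIP genes and 0.02 for neuron markers.

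Immune genes leaned lower. Of 22 tested immune effector and Turandot genes 21 had a negative log2 fold change, 7 with an unadjusted p below 0.05 and none called, with a median of -0.807, against -0.009 over all genes. *BomBc2*, a Bomanin peptide, had 99.7 and 90.9 normalized counts in *SPG-GAL4/UAS-traF*, 106 and 118 in *SPG-GAL4/+* and 145 and 195 in *UAS-traF/+* males (log2 fold change -0.83), and *DptB*, a Diptericin, had 47.0 and 31.3 in *SPG-GAL4/UAS-traF*, 69.2 and 73.3 in *SPG-GAL4/+* and 70.4 and 121 in *UAS-traF/+* males (log2 fold change -1.29). *UAS-traF/+* replicate 2 had the highest summed counts of the list. The median was -0.329 without it and -1.23 without replicate 1 of that genotype, and -0.623 with the trend of counts with gene length removed. *SPG-GAL4/+* males had a median of -0.473 against *UAS-traF/+*. Of 18 heat shock genes *Hsp22*, a mitochondrial small chaperone, had the smallest p, with 87.3 and 97.7 in *SPG-GAL4/UAS-traF*, 117 and 124 in *SPG-GAL4/+* and 161 and 179 in *UAS-traF/+* males (log2 fold change -0.88, edgeR adjusted p = 0.214). Of 24 detoxification genes 1 was higher and 4 were lower at an unadjusted p below 0.05, of 21 insulin and TOR genes 0 and 1, of 8 genes with sex-biased expression in heads 0 and 2, and of 17 ABC transporters 1, *w*, and 0. Over all gene sums 1.98% were higher and 5.15% lower at that p. The sex-biased head genes, 2 of them positive, had a median of -0.413, and of -0.197 without *UAS-traF/+* replicate 1. Their median was -0.496 against *SPG-GAL4/+*, and 0.014 for *SPG-GAL4/+* against *UAS-traF/+*.

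Of 14 photoreceptor genes, markers of the retina, 12 had a negative log2 fold change and 5 had an unadjusted p below 0.05, with a median of -0.386 for *SPG-GAL4/UAS-traF* and of -0.284 for *SPG-GAL4/+* males, both against *UAS-traF/+*. *ninaE*, the main rhodopsin, had 1179 and 1625 normalized counts in *SPG-GAL4/UAS-traF*, 1406 and 1852 in *SPG-GAL4/+* and 2916 and 1930.3 in *UAS-traF/+* males, and *trp* had 369 and 431 in *SPG-GAL4/UAS-traF*, 405 and 495 in *SPG-GAL4/+* and 636 and 553 in *UAS-traF/+* males. *UAS-traF/+* replicate 1 was highest for *ninaE*, and without that library the median was -0.257. The summed counts of all 14 genes lay between 32313 and 36787 in the 6 libraries. Eye tissue also expresses clock genes and *w*, and its part in their differences was not tested. The median log2 fold change was -0.028 for trachea, 0.114 for hemocyte, 0.262 for muscle and 0 for fat body genes.

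By chromosome, gene sums with an unadjusted p below 0.05 were, among the nuclear chromosomes, most frequent on the X, at 9.28% of 1648 genes, against 6.02% to 7.29% on the arms of chromosomes 2 and 3 and 3.85% of 78 genes on chromosome 4. With the length trend removed the share was 12.6% on the X and 23.1% on chromosome 4, against 7.04% to 10.4% on the arms of chromosomes 2 and 3. The share on the X was 9.59% in the comparison of *SPG-GAL4/+* with *UAS-traF/+*, and 3.82%, the lowest share, between *SPG-GAL4/UAS-traF* and *SPG-GAL4/+*. Of the 10 called genes 4 are annotated on the X (*w*, *GIIIspla2*, *nod* and *Sdic3*), and all were shared. *w* is also a common marker gene on transgene constructs, and all males carried the *w1118* allele on the X. Whether the *w* counts came from the X or from the constructs was not tested, so *w* may not belong among X-linked differences. In the 2-genotype fit 183 of 1622 X-linked genes (11.3%) were called, 69 of them shared and 11 not shared, against 47 and 29 on 2L, 35 and 25 on 2R, 34 and 26 on 3L and 41 and 44 on 3R. With the length trend also removed, that fit called 99 of 1622 genes on the X, 85 of 1712 on 2L and 17 of 78 on chromosome 4. It called 72 of 1979 on 2R, 62 of 1833 on 3L and 109 of 2396 on 3R. Males have 1 X chromosome and it comes from the mother. The methods do not say which stock gave the mothers in each cross, so the origin of the X and the genotype cannot be told apart.

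**Figure D5:**
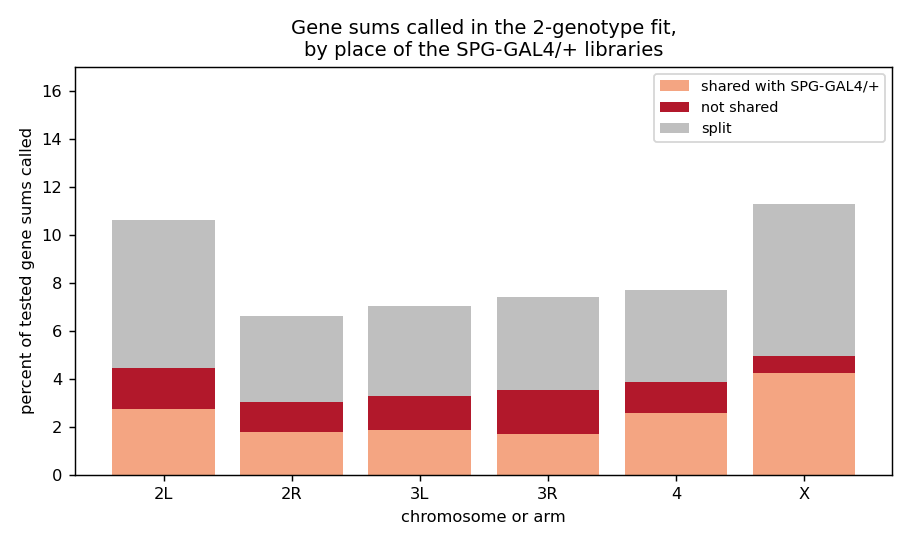
Percent of the gene sums tested on each chromosome or arm that were called in the 2-genotype fit of *SPG-GAL4/UAS-traF* and *UAS-traF/+* males, divided by the place of the *SPG-GAL4/+* libraries (shared, not shared or split). Calls reach 11.3% on the X, where 69 genes were shared and 11 were not, 7.69% on chromosome 4 and 6.62% to 10.6% on the arms of chromosomes 2 and 3. The length trend was not removed here.

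Of 13 genes of the mitochondrial genome 5 had an unadjusted p below 0.05, all lower in feminized males than in *UAS-traF/+* males. The median log2 fold change of the 13 was -0.309. In *SPG-GAL4/+* against *UAS-traF/+* males 7 of 13 had such a p, all lower, with a median of -0.358. *mt:ATPase8*, a subunit of ATP synthase, was called, with 989 and 869.7 normalized counts in *SPG-GAL4/UAS-traF*, 1127 and 1294 in *SPG-GAL4/+* and 3995 and 2588 in *UAS-traF/+* males (log2 fold change -1.82, SE 0.20, edgeR adjusted p = 0.0841). With the length trend removed no mitochondrial gene was called, 0 of 13, and 3 had an unadjusted p below 0.05 in edgeR. *mt:ATPase6*, which overlaps it and is transcribed with it, had 82522 and 79863 in *SPG-GAL4/UAS-traF*, 66311 and 74890.0 in *SPG-GAL4/+* and 129851 and 128034 in *UAS-traF/+* males (log2 fold change -0.67, edgeR adjusted p = 0.243). Whether reads of one gene were counted for the other was not tested. *mt:ND4* and *mt:Cyt-b*, on the same genome, had log2 fold changes of -0.01 and -0.06, nearer to 0 than the median of the 13.

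The direct comparison of *SPG-GAL4/UAS-traF* with *SPG-GAL4/+* males, which holds the driver constant, gave 1 of 9777 gene sums (0.0102%). *CG6928* had 1218 and 1104 normalized counts in *SPG-GAL4/UAS-traF*, 453 and 515 in *SPG-GAL4/+* and 1214 and 1174 in *UAS-traF/+* males, so that the driver-only libraries stood apart from the other 4 (log2 fold change to *SPG-GAL4/+* 1.26, edgeR adjusted p = 0.0414).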

How the data were processed

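Poly-A selected RNA of 6 brain libraries was sequenced in read pairs. The authors ran Kallisto on the read pairs, and the estimated counts that they deposited for each transcript are whole numbers that were not normalized. The version and the transcriptome release are not given in the sources used here. All 6 columns were used. Kallisto shares out reads that match several transcripts, so counts of sister transcripts are not independent.

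Counts were tested in R 4.3.3 with edgeR 4.0.16 (TMM normalization, its default filter on low counts, 1 fit with 3 genotypes, Benjamini-Hochberg adjustment, threshold 0.1). For printing, counts were brought to a common depth, the mean effective library size after TMM. Ensembl release 115 (BDGP6.54) placed 28061 of 28071 transcripts in 13453 genes, over which counts were summed, and usage was tested with diffSpliceDGE. The labels call the 2 libraries of each genotype biological replicates. A fold against a genotype with 0 counts in both libraries is a lower bound that sets 3 counts in each. Depth was 32839081 to 37608924 counts, and this floor covers counting error only.

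Named were all transcripts and genes past the threshold, then the next by p up to 20 and 10 in each direction whose groups do not overlap, and the members of smallest p of each list. The members and the gene lists were chosen with earlier results of these data known. Alternatives were DESeq2 1.42.0, limma-voom (limma 3.58.1), other size factors, filters and thresholds, a 2-genotype fit, removal of the trend with length, a replicate block and leaving out each library. The scripts were tested on simulated data. Some members of the gene lists are not reported here.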

Additional observations from a re-analysis of the deposited data

How the results depend on the processing

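For transcripts, where 13 were called, the count was 14 with the size factors of DESeq2 in edgeR and 13 with no filter. It was 656 with DESeq2, 5 with limma-voom, 7 with at least 10 counts in every library, 7 at an adjusted p below 0.05, 8 with 2 genotypes alone, 24 with the length trend removed, 3 with both, and 0 to 34 without single libraries. For gene sums, where 10 were called, it was 57 with DESeq2, 7 with limma-voom, 19 with no filter, 3 at an adjusted p below 0.05, 813 with 2 genotypes alone, 37 with the length trend removed, 448 with both, and 3 to 413 without single libraries. For usage, where 141 were called, it was 72 with at least 10 counts in every library, 329 with 2 genotypes alone, 265 with the F test in place of the Simes test, and 57 to 253 without single libraries. The main fit did not pair libraries by replicate number. The difference of replicate 1 and replicate 2 correlated across gene sums at -0.144 between *SPG-GAL4/UAS-traF* and *UAS-traF/+*. It correlated at -0.082 between *SPG-GAL4/UAS-traF* and *SPG-GAL4/+*, and at 0.362 between *SPG-GAL4/+* and *UAS-traF/+*. With the replicate number as a block 2 transcripts, 55 gene sums and 108 genes by usage were called, and with crossed numbers 0 transcripts and 12 gene sums. The same 13 transcripts and 10 gene sums, not called anew, were also divided without each single library. This gave 9 shared and 4 not shared transcripts each time, and 9 to 10 shared gene sums. With 1 *SPG-GAL4/+* library left no feature can be split, so the division could change little there. Of the transcripts called by DESeq2, 354 of 656 were shared and 157 were not, and 41 of its 57 gene sums were shared. Of the 8 transcripts called from 2 genotypes alone 2 were not shared, and of the 813 gene sums 230 were shared. Directions were followed through the alternatives for 40 transcripts and gene sums, the called ones included, and none reversed. The other named results were not followed in this way. For lone libraries the spread is that of the others. The cause was not tested.

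There are 2 libraries per genotype, and changes confined to the SPG were not measured apart from those of the whole brain.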

Other observations

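Some transcripts were counted in all libraries of 2 genotypes and in neither library of the other. With at least 50 counts taken as present and at most 3 as absent, limits chosen after seeing the data, 28 of 28071 transcripts (0.0997%) were absent in *UAS-traF/+* males alone, 4 in *SPG-GAL4/UAS-traF* males alone and 3 in *SPG-GAL4/+* males alone. Conversely, 9 transcripts were present in *SPG-GAL4/UAS-traF* males alone, 6 in *SPG-GAL4/+* males alone and 2 in *UAS-traF/+* males alone.

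The 9 that feminized brains had alone were transcripts of *psq*, *SERCA*, *nAChRalpha6*, *RalGPS*, *Nipped-B*, *Wdfy2*, *E(bx)*, *CG43367* and *CG43867*. *psq-RB*, from a gene for a chromatin and transcription factor, had 258 and 286 normalized counts in *SPG-GAL4/UAS-traF* males and 0 in all 4 libraries of *SPG-GAL4/+* and *UAS-traF/+* males. Its adjusted p against *UAS-traF/+* was 0.211 in edgeR. *SERCA-RC*, from the gene for the calcium pump of the endoplasmic reticulum, had 185 and 600.4 in *SPG-GAL4/UAS-traF*, 3.27 and 0 in *SPG-GAL4/+* and 0 in both *UAS-traF/+* libraries. *nAChRalpha6-RA*, a nicotinic acetylcholine receptor subunit, had 64.2 and 284 in *SPG-GAL4/UAS-traF* males and 0 in the other 4 libraries. The feminized replicates were close together for *psq-RB* and far apart for *SERCA-RC* and *nAChRalpha6-RA*.

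The 4 absent in feminized brains alone were *JhI-21-RA*, *Pld-RD*, *hyd-RB* and *toc-RC*, and the 2 that *UAS-traF/+* brains had alone were *cpx-RV*, from the Complexin gene, and *CG42540-RB*. For gene sums such patterns were rare: *Sdic3* and *Sdic4* were absent in *UAS-traF/+* males alone, and *BaraA1*, the gene of the immune peptide precursor Baramicin A, was present in *SPG-GAL4/+* males alone.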
